A study of Mus musculus with 4 samples.

Results

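The 10 genes described here are the D-type cyclins Ccnd1, Ccnd2 and Ccnd3, their kinase partner Cdk6, the INK4 inhibitors Cdkn2a, Cdkn2b, Cdkn2c and Cdkn2d, and the CIP/KIP inhibitors Cdkn1a and Cdkn1b. They were taken by name from a table of 41214 mouse genes, and all 10 had a row. RNA was sequenced from B220+ spleen cells of MIZ-1WT and MIZ-1DPOZ mice, with 2 libraries per genotype and no stimulation named in the labels. In the MIZ-1DPOZ mice, Cre under the Mb1 (Cd79a) locus, which is active in the B lineage, removed the part of Miz-1 that encodes the POZ domain, so that a truncated MIZ-1 protein is made. Both genotypes were on a C57BL/6 background, the labels gave neither age nor sex, the study's methods gave a single age range of young animals for all experiments, and the sources used here did not state whether MIZ-1WT mice carried Cre. Cells were selected with B220 beads and not sorted into subsets. The libraries of each genotype were labelled a biological duplicate without naming the mice, so p-values measured only the spread between these libraries.

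Passage from G1 into S phase is driven by D-type cyclins, which activate CDK4 and CDK6 to phosphorylate the retinoblastoma protein and so free E2F factors. INK4 proteins bind CDK4 and CDK6 and block this step, while CIP/KIP proteins mainly restrain the cyclin E and cyclin A complexes of CDK2. MIZ-1 is a zinc finger transcription factor that binds near the start sites of Cdkn1a and Cdkn2b in other cell types, where MYC can turn it from an activator into a repressor. Resting splenic B cells are held in G0, with high p27 (the product of Cdkn1b), and B cells induce cyclin D2 and cyclin D3 when they are stimulated.

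The libraries held from 43026814 to 46387209 counts on genes. The share of reads that matched no counted feature was 27.2% and 25.5% for MIZ-1WT but 21.6% and 21.1% for MIZ-1DPOZ. Such reads need not lie outside genes, since introns may not be counted. Zbtb17, the gene of MIZ-1, had 2087 and 1946 counts in MIZ-1WT and 1774 and 1669 in MIZ-1DPOZ, but a count over the whole gene does not show the loss of the POZ part. Xist had 49 and 60 counts in MIZ-1WT and 38145 and 40838 in MIZ-1DPOZ, and the Y-linked gene Ddx3y had 15840 and 14896 against 680 and 622, so sex and genotype cannot be told apart in any comparison here. The 10 pan-B markers, Ms4a1 among them, were present in every library at a summed level of 10800 to 12550 CPM (counts scaled to library size by TMM). All 16 macrophage markers were higher in MIZ-1DPOZ, at a summed 5643 and 3569 CPM against 952.3 and 1265 CPM in MIZ-1WT. In such bulk samples, fewer cells of a type and less RNA per cell cannot be told apart.

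The sequences before the start sites of the 4 members that differed between the genotypes are shown so that the differences can be read beside the promoters they belong to. RefSeq windows on GRCm38.p6 were found for 8 of the 10 members, 12 windows in all, and not for Ccnd1 and Ccnd2. Only the bases outside annotated exons are printed, 5′ to 3′ on the strand of the gene, with CCAAT boxes (CCAAT or ATTGG) and GC boxes (GGGCGG or CCGCCC) in capitals. The Cdkn1b stretch is chr6:134920151-134920400 on the plus strand. The Cdkn2d stretch is chr9:21291408-21291459 on the minus strand. Ccnd3 has a stretch before each of its annotated starts, both on the plus strand, at chr17:47504801-47505050 (upstream) and chr17:47593217-47593435 (downstream), and the counts do not show which start was used. The Cdkn2c stretch is chr4:109665373-109665609 on the minus strand, also before the more downstream start, since the window of the other start lies within exons.
Cdkn1b: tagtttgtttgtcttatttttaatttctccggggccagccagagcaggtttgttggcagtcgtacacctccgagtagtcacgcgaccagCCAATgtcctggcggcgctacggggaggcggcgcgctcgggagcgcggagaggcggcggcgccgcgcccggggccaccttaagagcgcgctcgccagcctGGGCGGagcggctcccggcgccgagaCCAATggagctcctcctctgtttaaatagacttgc
Cdkn2d: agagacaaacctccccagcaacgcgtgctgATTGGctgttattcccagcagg
Ccnd3 upstream: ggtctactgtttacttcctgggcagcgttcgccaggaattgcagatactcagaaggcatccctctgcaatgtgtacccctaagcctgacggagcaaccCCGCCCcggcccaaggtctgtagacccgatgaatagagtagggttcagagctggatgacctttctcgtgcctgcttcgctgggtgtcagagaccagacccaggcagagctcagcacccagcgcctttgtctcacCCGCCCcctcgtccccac
Ccnd3 downstream: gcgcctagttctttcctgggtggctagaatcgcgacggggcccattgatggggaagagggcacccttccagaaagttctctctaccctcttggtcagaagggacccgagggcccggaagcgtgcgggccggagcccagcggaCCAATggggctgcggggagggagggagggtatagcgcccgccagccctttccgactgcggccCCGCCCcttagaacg
Cdkn2c: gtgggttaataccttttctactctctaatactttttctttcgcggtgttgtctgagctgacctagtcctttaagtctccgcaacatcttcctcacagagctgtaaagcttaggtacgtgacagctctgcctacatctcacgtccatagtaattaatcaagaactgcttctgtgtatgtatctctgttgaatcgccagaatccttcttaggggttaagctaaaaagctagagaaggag

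In the 250 bases before each start, searched on both strands with each motif counted separately, the CCAAT box occurred in 3 of the 12 member windows. These belonged to Cdkn1b, Cdkn2d and the downstream start of Ccnd3, and the box occurred in 33.8% of all 32851 windows of that length. The GC box occurred in 7 of the 12 windows and in 32.7% of all windows, and those of Cdkn2d and Cdkn2c lie in exonic bases that are not printed. The E-box CACGTG, which MYC and MAX can bind, occurred in 1 of the 12 windows, that of Cdk6, and in 6.02% of all windows. A match is a run of letters and not a bound site, and binding of MIZ-1 was not analysed here.

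Cdkn1b, Cdkn2d and Ccnd3 were lower and Cdkn2c was higher in MIZ-1DPOZ in the quasi-likelihood test of edgeR, adjusted by Benjamini-Hochberg over all genes tested. Thus 4 of the 9 members tested passed an adjusted p of 0.05, 1 higher and 3 lower. Of all 14554 genes tested, 40.0% passed, 21.1% as higher and 18.9% as lower, so the members' share of 44.4% was close to the background in the full set. With MIZ-1WT replicate 1 or 2 left out, the log2 fold changes of these 4 members kept their direction. Cdkn2a had too few counts to be tested, and Cdkn1a, Cdkn2b, Ccnd1, Ccnd2 and Cdk6 did not pass. With a size limit of 0.6 on the log2 scale and an unadjusted p under 0.05, 1 member passed, Cdkn2c, against 20.3% of all genes, 15.0% higher and 5.30% lower. Among the 9 tested members, the CPM of the genotypes did not overlap for 5, of which 2 were above and 3 below MIZ-1WT. This occurred for 74.8% of all genes, 37.2% above and 37.6% below. The calls of Cdkn2d and Ccnd3 depended on scaling: when libraries were scaled to the 10 pan-B markers, a setting chosen after the data were seen, the median of all genes moved up by 0.31 on the log2 scale and neither passed.

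**Figure D1:**
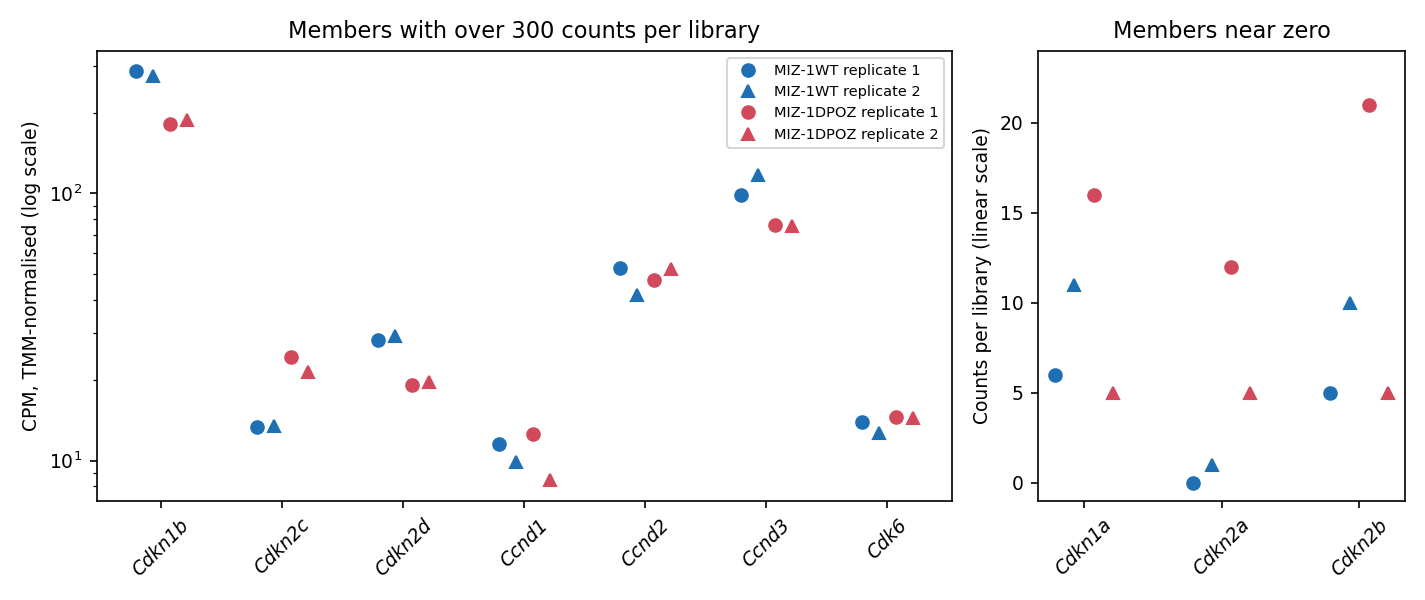
Levels of the 10 members in each of the 4 libraries. Left, TMM-normalised CPM on a log axis for 7 members; right, raw counts on a linear axis for the 3 members near zero; blue marks are MIZ-1WT and red marks are MIZ-1DPOZ, with circles for replicate 1 and triangles for replicate 2. Red marks lie below blue for Cdkn1b, Cdkn2d and Ccnd3 and above blue for Cdkn2c. They also lie above blue for Cdk6, which did not pass the test, and for Cdkn2a, which was not tested.

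**Figure D2:**
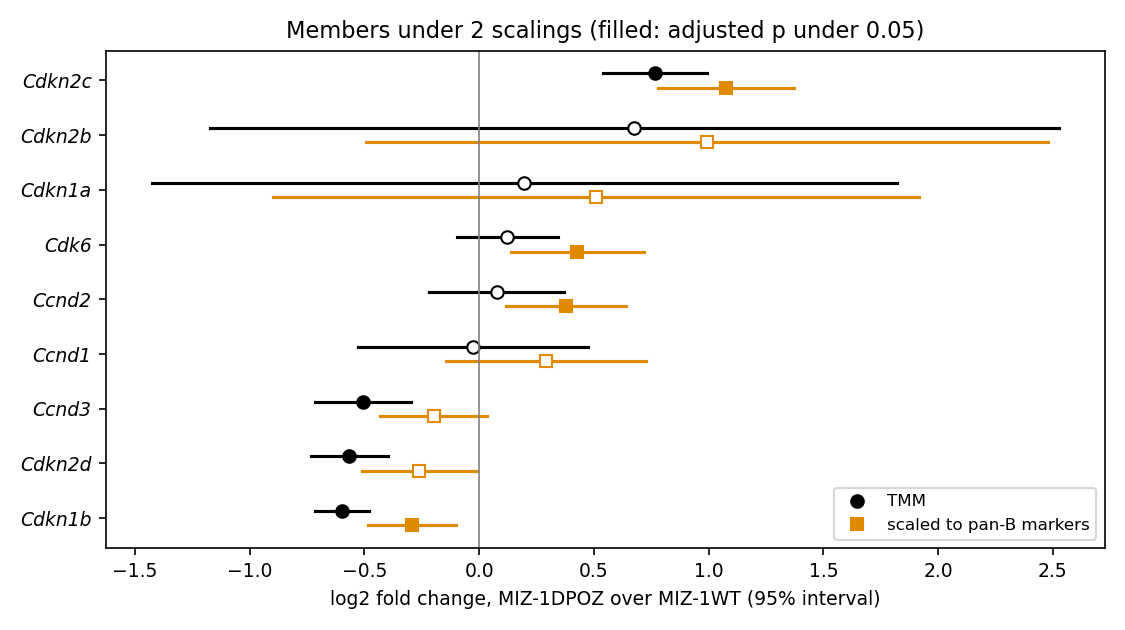
Log2 fold change of MIZ-1DPOZ over MIZ-1WT for the 9 tested members, with lines for the 95% interval. Black circles use TMM and orange squares use libraries scaled to the pan-B markers; filled marks passed an adjusted p of 0.05. Cdkn1b and Cdkn2c are filled under both scalings, Cdkn2d and Ccnd3 only under TMM, and Ccnd2 and Cdk6 only under the pan-B scaling.

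Of the CIP/KIP inhibitors, Cdkn1b was the most abundant member in every library and fell to 0.661 times its MIZ-1WT level. Cdkn1b (chr6:134920401-134925513, plus strand, GRCm38) encodes p27, which holds CDK2 complexes inactive in quiescent cells. Its level was 286.9 and 274.4 CPM in MIZ-1WT and 182.7 and 188.4 CPM in MIZ-1DPOZ. Both MIZ-1DPOZ libraries were low, and the distance between the genotypes was many times that between replicates. The means were 280.7 ± 8.83 CPM in MIZ-1WT and 185.6 ± 4.01 CPM in MIZ-1DPOZ (SD, n = 2). Its log2 fold change was -0.60 (SE 0.047, 95% interval -0.71 to -0.48, adjusted p = 0.00118). Scaled to the pan-B markers it remained lower, at -0.29 with an adjusted p of 0.0166.

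Cdkn1a (chr17:29090976-29100727, plus strand) encodes p21, the CIP/KIP inhibitor that p53 induces. It had 6 and 11 counts in MIZ-1WT and 16 and 5 counts in MIZ-1DPOZ. The genotypes overlapped, and the highest and the lowest library were both MIZ-1DPOZ. The summed counts of 17 and 21 gave a ratio of 1.21 with a 95% counting interval of 0.606 to 2.43, which covers counting error only. A difference was not detectable at this depth (log2 fold change 0.20, SE 0.66, adjusted p = 0.833).

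Of the INK4 inhibitors, Cdkn2c rose and Cdkn2d fell, while Cdkn2a and Cdkn2b stayed below 25 counts in every library. Cdkn2c (chr4:109660876-109667189, minus strand) encodes p18, which is known to limit CDK6 in lymphocytes and to act in plasma cell formation. Its level was 13.38 and 13.49 CPM in MIZ-1WT and 24.34 and 21.37 CPM in MIZ-1DPOZ. The MIZ-1WT libraries were almost equal, and both MIZ-1DPOZ libraries lay well above them. The means were 13.44 ± 0.0726 CPM and 22.86 ± 2.11 CPM (SD, n = 2), a ratio of 1.70. The log2 fold change was 0.77 (SE 0.092, 95% interval 0.54 to 0.99, adjusted p = 0.00290), and it was 1.08 when scaled to the pan-B markers.

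Cdkn2d (chr9:21288410-21291407, minus strand) encodes p19INK4d, which also inhibits CDK4 and CDK6. Its level was 28.33 and 29.38 CPM in MIZ-1WT and 19.24 and 19.75 CPM in MIZ-1DPOZ. The replicates lay close together in each genotype and the genotypes did not overlap. The means were 28.85 ± 0.742 CPM and 19.49 ± 0.359 CPM (SD, n = 2), a ratio of 0.676. The log2 fold change was -0.57 (SE 0.067, 95% interval -0.73 to -0.40, adjusted p = 0.00289). Scaled to the pan-B markers it was -0.26 and did not pass, with an adjusted p of 0.0805.

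Cdkn2a (chr4:89274471-89294653, minus strand) encodes both p16INK4a and p19ARF, which a count over the gene cannot separate. It had 0 and 1 counts in MIZ-1WT and 12 and 5 counts in MIZ-1DPOZ. Both MIZ-1DPOZ libraries were higher, but with 1 count against 17 in all, the ratio of 16.6 had a 95% counting interval of 2.60 to 693.6. It was below the count minimum of the test, and without that minimum its log2 fold change was 3.68 (SE 1.24, adjusted p = 0.0494). Cdkn2b, its neighbour (chr4:89306299-89311039, minus strand), encodes p15, through which TGF-beta arrests many cells. It had 5 and 10 counts in MIZ-1WT and 21 and 5 counts in MIZ-1DPOZ, so the genotypes overlapped. The summed counts of 15 and 26 gave a ratio of 1.69 with a counting interval of 0.864 to 3.44, and the log2 fold change was 0.68 (SE 0.75, adjusted p = 0.508).

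The 3 members near zero were higher in the library of each genotype that held more macrophage marker RNA. In MIZ-1WT this was replicate 2, where Cdkn1a, Cdkn2a and Cdkn2b had 11, 1 and 10 counts against 6, 0 and 5 in replicate 1. In MIZ-1DPOZ it was replicate 1, with 16, 12 and 21 counts against 5 counts for each of them in replicate 2. The part of macrophage RNA in these counts was not tested.

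Of the D-type cyclins, which bind and activate CDK4 and CDK6, Ccnd3 fell and Ccnd1 and Ccnd2 did not pass the test. Ccnd3 (chr17:47505051-47599691, plus strand) encodes cyclin D3, which early B cell expansion and germinal center growth require. Its level was 98.94 and 117.1 CPM in MIZ-1WT and 76.42 and 75.81 CPM in MIZ-1DPOZ. The MIZ-1WT libraries lay apart from each other, and both were above the closely matched MIZ-1DPOZ libraries. The means were 108.0 ± 12.8 CPM and 76.11 ± 0.432 CPM (SD, n = 2), a ratio of 0.705. The log2 fold change was -0.50 (SE 0.085, 95% interval -0.71 to -0.30, adjusted p = 0.00775). Scaled to the pan-B markers it was -0.20 with an adjusted p of 0.147. Ccnd3 shares 361 exonic bases with Bysl on the opposite strand, and the strand setting of the counting was not given in the sources used here. Bysl stood at 18.31 and 14.77 CPM in MIZ-1WT and 19.85 and 21.37 CPM in MIZ-1DPOZ and did not pass (adjusted p = 0.0825).

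Ccnd2 (chr6:127125162-127152193, minus strand) encodes cyclin D2, the D-type cyclin that B cell receptor signals induce. It stood at 52.62 and 41.58 CPM in MIZ-1WT and at 47.32 and 51.98 CPM in MIZ-1DPOZ. Both MIZ-1DPOZ values lay between the MIZ-1WT values. The log2 fold change was 0.076 (SE 0.12, 95% interval -0.22 to 0.37, adjusted p = 0.644), whereas scaled to the pan-B markers it was 0.38 and passed (adjusted p = 0.0215).

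Ccnd1 (chr7:144929931-144939925, minus strand) encodes cyclin D1, which most lymphocytes express weakly. It stood at 11.53 and 9.895 CPM in MIZ-1WT and at 12.58 and 8.428 CPM in MIZ-1DPOZ. The MIZ-1WT values lay between the MIZ-1DPOZ values, and the replicates of MIZ-1DPOZ differed by 0.58 on the log2 scale. The macrophage markers differed between the same replicates by a median of 0.64, but in MIZ-1WT they differed by -0.39 while Ccnd1 differed by 0.22, and their part in its level was not tested. The log2 fold change of Ccnd1 was -0.027 (SE 0.20, 95% interval -0.53 to 0.47, adjusted p = 0.927), and 0.29 when scaled to the pan-B markers (adjusted p = 0.253). Ccnd1 is an uncertain row, since it shares 1100 exonic bases with Lto1 on the opposite strand. Lto1 (listed as LTO1) fell by 0.44 on the log2 scale (adjusted p = 0.00567). Shorter overlaps with opposite-strand genes exist for Ccnd2 (372 and 368 exonic bases), Cdk6 (368) and Cdkn1a (273). Of the genes in these shorter overlaps, only 9330179D12Rik, beside Ccnd2, had a row, with 1 to 15 counts per library.

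Cdk6 (chr5:3341485-3531008, plus strand) encodes the kinase that D-type cyclins activate in lymphoid cells beside CDK4. It stood at 13.96 and 12.68 CPM in MIZ-1WT and at 14.51 and 14.49 CPM in MIZ-1DPOZ. Both MIZ-1DPOZ libraries were higher, by less than the spread of MIZ-1WT. The log2 fold change was 0.12 (SE 0.089, 95% interval -0.098 to 0.34, adjusted p = 0.316), and it was 0.43 with an adjusted p of 0.0188 when scaled to the pan-B markers.

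To compare genes with each other, levels were expressed per exon length as TPM, which divides counts by exon length and scales each library to the same total. The length was the union of all annotated exons of a gene, which can exceed the length of the transcripts in use. The counts do not show which transcripts were used, so the order and ratios between genes depend on this choice of length. In MIZ-1WT the order was Cdkn1b, Cdkn2d, Ccnd3, Ccnd2, Cdkn2c, Ccnd1, Cdk6, Cdkn2b, Cdkn1a and Cdkn2a, and the ranges of Ccnd2 and Cdkn2c overlapped. In MIZ-1DPOZ Cdkn2c stood above Ccnd2 and overlapped Ccnd3, and Cdkn1a, Cdkn2a and Cdkn2b overlapped each other at the bottom. Cdkn1b had a mean of 135.2 TPM over the 4 libraries, above 93.9% of the 12292 protein-coding genes tested. Cdkn2d followed at 40.55 TPM (above 74.2%) and Ccnd3 at 27.72 TPM (above 63.5%). Ccnd1 and Cdk6 lay low in the distribution, at 6.01 TPM (above 30.1%) and 2.65 TPM (above 20.9%).

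The balance within the INK4 family differed between the genotypes. The TPM of Cdkn2d was 3.61 and 3.72 times that of Cdkn2c in the MIZ-1WT libraries and 1.35 and 1.58 times in the MIZ-1DPOZ libraries. The summed TPM of the 4 INK4 members was 59.4 and 60.9 in MIZ-1WT and 61.7 and 55.5 in MIZ-1DPOZ, so the sums overlapped while their makeup did not. The ratios are taken within a library and, unlike the sums, do not depend on how libraries were scaled.

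Among the D-type cyclins, the ratio of Ccnd3 to Ccnd2 was 2.02 and 3.02 in MIZ-1WT and 1.73 and 1.56 in MIZ-1DPOZ. The TPM ratio of Ccnd3 to Cdkn2c was 2.26 and 2.66 in MIZ-1WT and 0.961 and 1.09 in MIZ-1DPOZ. In contrast, Cdkn1b and Cdkn2d kept a ratio of 3.23 to 3.50 in MIZ-1WT and 3.28 to 3.30 in MIZ-1DPOZ. The size of the Ccnd3 to Cdkn2c ratio rests on union exon lengths of 8775 and 2686 bases. Without division by length, the MIZ-1DPOZ means were 76.11 CPM for Ccnd3 and 22.86 CPM for Cdkn2c. Cdk4 exceeded Cdk6 by 28.6 and 30.8 times in MIZ-1WT and by 35.9 and 33.2 times in MIZ-1DPOZ.

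**Figure D3:**
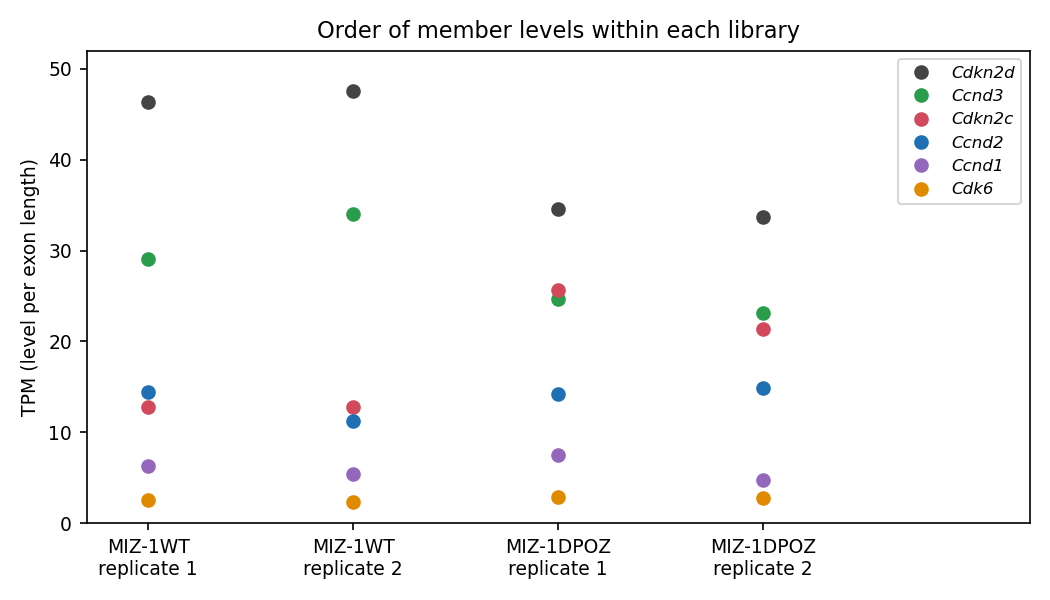
TPM of 6 members in each library on a linear axis, with 1 point per gene and library and no error bars, since each point is a single library. Cdkn2d is the highest of the 6 in every library at 33.67 to 47.60 TPM, and Cdkn2c lies near Ccnd2 in MIZ-1WT and near Ccnd3 in MIZ-1DPOZ.

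The other genes of the G1/S machinery are the cyclins, kinases, pocket proteins and E2F factors that work with the members. Of 22 such genes, all of them tested, 12 were higher and 3 lower in MIZ-1DPOZ, against 21.1% and 18.9% of all genes, with a median log2 fold change of 0.30 against -0.0064 for all genes. Without MIZ-1WT replicate 1 or 2, fewer genes of this list were higher, as over all genes. Of the pocket proteins, Rbl1 was higher and Rb1 and Rbl2 did not pass, and of the E2F genes, E2f1 and E2f3 were higher, E2f5 was lower and E2f2 and E2f4 did not pass. The largest rises were those of Ccna2, the S phase cyclin A2, which went from 16.68 and 18.41 CPM to 83.39 and 68.63 CPM (log2 fold change 2.12, SE 0.11, adjusted p = 0.000739), and of Cks1b. Cks1b and Skp2 encode the parts of the ubiquitin ligase that marks p27 for degradation. Cks1b went from 5.46 and 6.26 CPM to 18.34 and 17.61 CPM (log2 fold change 1.62, SE 0.11), and Skp2 from 10.75 and 11.51 CPM to 24.93 and 19.57 CPM (log2 fold change 1.00, SE 0.13, adjusted p = 0.00385). No values of these genes overlapped between the genotypes.

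Ccne2, a cyclin E that activates CDK2, rose by 1.50 on the log2 scale, and Tfdp1, the partner of E2F factors, by 0.99. Cdc25a, the phosphatase that activates CDK2, was higher by 0.51, Mnat1 of the CDK-activating kinase by 0.57, and Cdk4 by 0.34 (adjusted p = 0.00676). The 3 lower genes, named after their values were seen, were Tfdp2 at -0.41, Cdk7 at -0.21 and E2f5 at -0.29. None of these 3 passed when scaled to the pan-B markers, where 0 genes of the list were lower. Cdk2, the target of p27, stood at 48.70 and 49.02 CPM in MIZ-1WT and 44.76 and 45.83 CPM in MIZ-1DPOZ and did not pass (adjusted p = 0.152). Cdkn1c, the CIP/KIP inhibitor p57, had 12 to 25 counts per library, and its genotypes overlapped.

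Of 15 genes known to control the members, 3 were higher and 5 lower, against 21.1% and 18.9% of all genes, so the share of higher calls was near the background. Without MIZ-1WT replicate 2 only 1 was higher, without MIZ-1WT replicate 1 only 3 were lower, and under the pan-B scaling 6 were higher and 3 lower. The median log2 fold change was -0.17, which turned to 0.13 under the pan-B scaling. Of the 3 FOXO genes listed, whose products activate transcription of Cdkn1b, Foxo1 and Foxo4 were lower and Foxo3 did not pass. Foxo4 went from 31.33 and 31.04 CPM to 20.00 and 19.38 CPM (log2 fold change -0.66, SE 0.065, adjusted p = 0.00183). Foxo1 went from 54.89 and 49.33 CPM to 30.69 and 40.54 CPM (log2 fold change -0.55, SE 0.14, adjusted p = 0.0253), and it did not pass when scaled to the pan-B markers (adjusted p = 0.0913). Foxo3, the most abundant of the FOXO genes listed by CPM, stood at 93.94 and 89.46 CPM in MIZ-1WT and 74.27 and 88.65 CPM in MIZ-1DPOZ and did not pass (log2 fold change -0.17, adjusted p = 0.182, and 0.13 under the pan-B scaling). Klf2, a factor of lymphocyte quiescence, was lower by 0.92 on the log2 scale.

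Bcl6, a transcriptional repressor that germinal center B cells require and whose targets include CDK inhibitors, had the largest change of the regulators. It went from 114.2 and 105.2 CPM to 42.66 and 42.98 CPM (log2 fold change -1.36, SE 0.060, adjusted p = 0.000682). Myc, which activates Ccnd2 and represses several CDK inhibitors, was higher, at 28.14 and 23.41 CPM in MIZ-1WT and 35.18 and 39.47 CPM in MIZ-1DPOZ (log2 fold change 0.53, SE 0.11, adjusted p = 0.0139). Ezh2, a Polycomb enzyme that silences Cdkn2a, was higher by 0.31. Zbtb17 itself, counted among the lower regulators, had a log2 fold change of -0.32 (SE 0.056, adjusted p = 0.00857). This call was lost when scaled to the pan-B markers (-0.018, adjusted p = 0.903). Its count covers the part removed in MIZ-1DPOZ, so lost reads of that part and lower expression cannot be told apart.

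**Figure D4:**
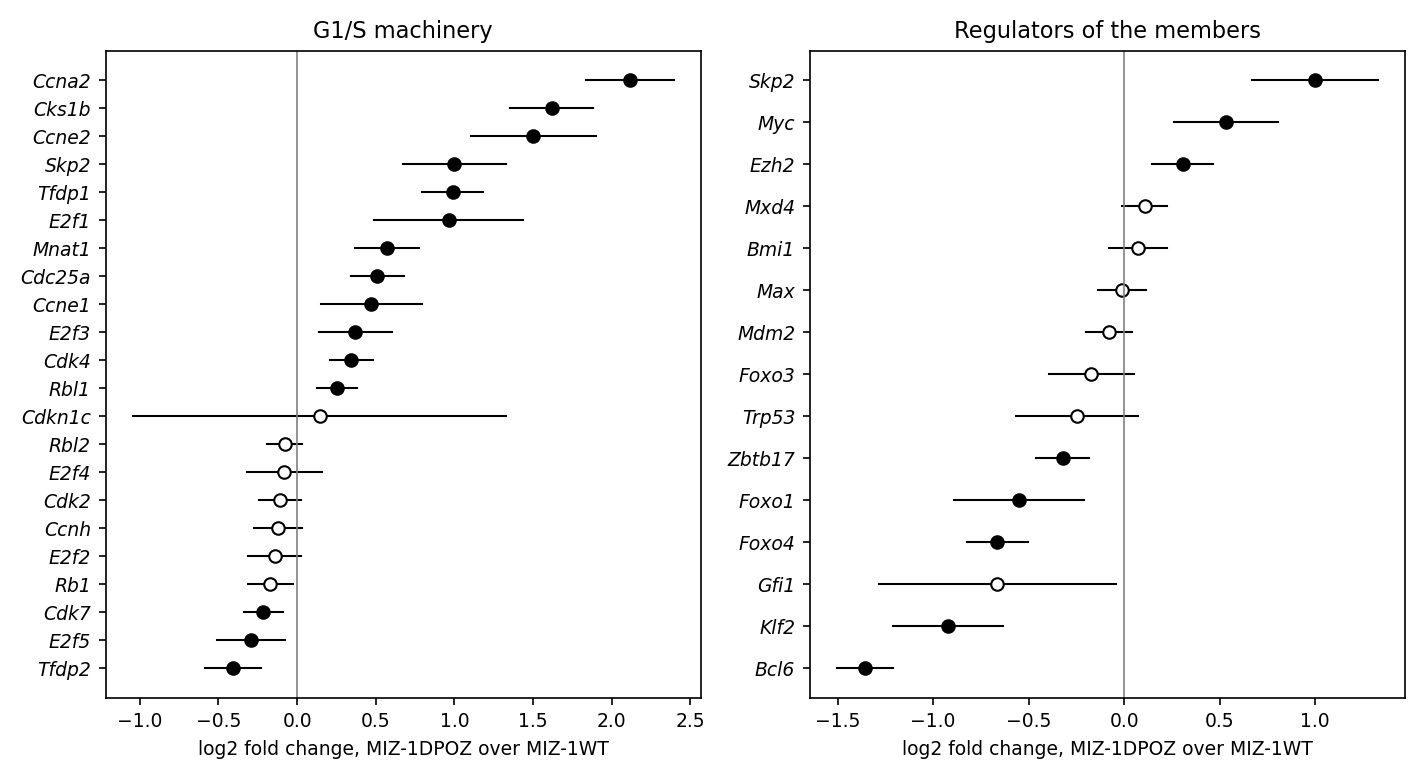
Log2 fold change of MIZ-1DPOZ over MIZ-1WT under TMM for the 22 genes of the G1/S machinery (left) and the 15 regulators of the members (right), with lines for the 95% interval and filled points for an adjusted p under 0.05. Ccna2 at 2.12 and Skp2 at 1.00 head the panels, and Tfdp2 at -0.41 and Bcl6 at -1.36 end them.

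Genes of cycling cells moved in the same direction as Cdkn2c. All 18 genes of this list, which mark S phase and mitosis, were higher in MIZ-1DPOZ, by 0.31 to 2.18 on the log2 scale with a median of 1.52. Mki67 went from 2704 and 2448 counts to 12691 and 11456 counts, a log2 fold change of 2.13, and Top2a and Ccnb1 were higher by 1.93 and 1.96. The summed level of the list was 831.1 and 818.9 CPM in MIZ-1WT and 1923 and 1696 CPM in MIZ-1DPOZ. In MIZ-1DPOZ, both this list and Cdkn2c were higher in replicate 1. In MIZ-1WT the replicates were almost equal for the list and for Cdkn2c (13.38 and 13.49 CPM), so they gave no clear direction. The part of cycling cells in the difference of Cdkn2c was not tested.

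Many markers of B cell subsets and some of other cells moved with the genotype beside the members. All 5 germinal center markers were higher, at a summed 31.21 and 41.41 CPM in MIZ-1WT against 211.2 and 168.8 CPM in MIZ-1DPOZ. Bcl6, which germinal center B cells require, was not in this list and was lower. It stood at 114.2 and 105.2 CPM in MIZ-1WT and 42.66 and 42.98 CPM in MIZ-1DPOZ. Of 7 plasma cell markers 6 were higher, at a summed 751.1 and 1084 CPM against 2587 and 2384 CPM. All 9 marginal zone markers and 3 of 4 B-1 markers were higher too, while 3 of 5 measured follicular and 7 of 10 pan-B markers were lower, with Cr2 higher in the pan-B list. Over all genes tested, 21.1% were higher and 18.9% lower. Higher calls numbered 2 of 12 for T cell markers and 3 of 7 for dendritic cell markers. They numbered 1 of 8 for erythroid markers and 1 of 5 tested neutrophil markers, with none lower in these lists. The T cell, erythroid and neutrophil shares did not exceed that of all genes. Cr2, Fcer2a and Cd5 are shared between marker lists. Klf2 is both a follicular marker and a listed regulator, and the higher call of Skp2 is counted in both the G1/S machinery and the regulators. Several of these marker counts changed when a library was left out, as did the calls over all genes. Without either MIZ-1WT library 2 pan-B markers were lower and 1 B-1 marker was higher, without MIZ-1WT replicate 2 only 1 follicular marker was lower, and without MIZ-1DPOZ replicate 1 the higher erythroid markers numbered 7. No marker was at 0 in all libraries. The part of these cell types in the differences of Cdkn1b, Cdkn2c, Cdkn2d and Ccnd3 was not tested.

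The genes whose log2 CPM over the 4 libraries was most like that of Cdkn2c, among 11886 protein-coding genes, were Rrm1, Suv39h2 and Cyb5r2. Rrm1 encodes the large subunit of ribonucleotide reductase, which makes the DNA precursors used in S phase. Centred on MIZ-1WT, their values differed from those of Cdkn2c by a root mean square of 0.0111, 0.0117 and 0.0141. Those most like Cdkn1b were Rnf167, Dcp1b and Snapc3, at 0.0145, 0.0177 and 0.0192. With only 4 libraries, such closeness describes these samples and no more.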

How the data were processed

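RNA-seq was done on B220+ splenocytes, 2 libraries for each of 2 genotypes, with rRNA depletion, a stranded kit and paired-end reads. The authors trimmed reads, mapped them to mm10 (GRCm38; the submitters' processing notes name TopHat2 2.1.0) and deposited raw counts per Ensembl gene from HTSeq, neither normalised nor pooled. The strand setting of the counting and the Ensembl release were not given in the sources used here. Reads without a unique alignment made up 42.8% to 44.1% of the table. Reads that matched no counted feature made up 21.1% to 27.2% and ambiguous reads 0.281% to 0.302%. All were left out. Of 41214 genes, 40340 received a symbol from GENCODE M21.

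A gene entered the test if 2 or more libraries had 10 or more counts, which 14554 did. Genotype was tested with the quasi-likelihood test of edgeR 4.0.16 in R 4.3.3, with TMM factors from 0.977 to 1.03 and Benjamini-Hochberg adjustment over all of them. The threshold was an adjusted p of 0.05. TPM used the union exon length per gene. The script was tested on simulated data. The members and lists were chosen with earlier results of these data known. Named genes were the members, at most 8 called genes each of the G1/S machinery and the regulators by smallest p, the first 3 cycling genes, and the 3 genes most like Cdkn2c and Cdkn1b, from log2 CPM with a prior count of 2. Other genes named were chosen after their values were seen. The alternatives were other size factors, DESeq2 1.42.0, other count filters, removal of immunoglobulin and T cell receptor segments, a replicate block, each library left out, and scaling to the 10 pan-B markers, which was added after seeing the data.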

Additional observations from a re-analysis of the deposited data

How the results depend on the processing

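The calls of Cdkn1b, Cdkn2c, Cdkn2d and Ccnd3 held in 42 of 44 refits, 11 for each gene, and were lost only for Cdkn2d and Ccnd3 under the pan-B scaling. That scaling moved the median of all genes by 0.31 on the log2 scale and gave 6207 genes higher and 534 lower, and among the members 3 higher and 1 lower. It gave log2 fold changes of 0.38 for Ccnd2 and 0.43 for Cdk6, which then passed, -0.20 for Ccnd3 and -0.26 for Cdkn2d, which no longer did, and 0.29 for Ccnd1. The G1/S machinery had 0 lower genes and a median of 0.60, the cycling genes a median of 1.83, and the regulators 6 higher, 3 lower and a median of 0.13. Without a count filter 2 members were higher, since Cdkn2a entered the test, and with at least 1 CPM the G1/S machinery had a median of 0.36, since fewer genes were tested.

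Same-numbered libraries of the genotypes showed no shared shift (correlation of deviations -0.079 over 12192 genes). With 2 libraries per genotype, this cannot show whether the samples were paired in preparation. A fit with the replicate number as a block gave 2633 genes higher and 2099 lower, 1 lower gene in the G1/S machinery, and -0.60 for Cdkn1b (adjusted p = 0.00355). With each library left out, log2 fold changes ranged from -0.34 to 0.24 for Ccnd1, -0.084 to 0.26 for Ccnd2, -0.79 to 0.76 for Cdkn1a and -0.61 to 1.33 for Cdkn2b, so the direction of each turned. Ccnd1 gave 0.088 without MIZ-1WT replicate 1 and Cdkn1a gave -0.20. The ranges were 0.67 to 0.87 for Cdkn2c, -0.63 to -0.56 for Cdkn1b, -0.59 to -0.54 for Cdkn2d and -0.62 to -0.38 for Ccnd3. Genes higher numbered 1367 to 3017 and genes lower 837 to 2722, both lowest without MIZ-1WT replicate 1. The G1/S machinery had 7 to 11 higher and 0 to 3 lower, and the regulators 1 to 3 higher, 3 to 7 lower and a median of -0.29 to -0.075, with the fewest higher calls in both lists without MIZ-1WT replicate 2 and the fewest lower regulators without MIZ-1WT replicate 1. The cycling genes had a median of 1.39 to 1.65. The lone library of such a fit is assumed to vary like the other genotype. Causes of these shifts were not tested. Depth limits Cdkn1a, Cdkn2a and Cdkn2b, with at most 21 counts in a library, and 2 libraries a genotype limit all.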
